A study of Mus musculus with 4 samples.

Results

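The T cell-rich niche of these mouse brain tumours was a set of 677 array spots, out of 3389 tumour spots and 13046 spots over tissue in 4 capture areas. A spot counted as tumour when it lay over tissue, held at least 2000 UMIs (unique molecular identifiers, each counting 1 captured molecule), and had a summed level of at least 1500 CPM (UMI counts scaled to a total of 1000000) over 21 proliferation genes such as Mki67, Top2a and Cdk1. Within each area, the niche was the top 20% of tumour spots by the summed CPM of 6 T cell genes, namely Cd3e, Cd3d, Cd3g, Cd8a, Cd2 and Lck. The niche took up 54 of 272 tumour spots in TREAT 1+4, 127 of 637 in TREAT 2+3, 202 of 1009 in Vehicle 1+4 and 294 of 1471 in Vehicle 2+3. Wherever values of all 4 areas follow each other below, they are in that order.

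Cd3e, Cd3d and Cd3g encode the invariant chains that carry the T cell receptor's signal, Lck is the kinase that starts it, Cd8a is the co-receptor of cytotoxic T cells, and Cd2 is an adhesion receptor of T and NK cells. T cells enter a tumour from vessels, are drawn on by chemokines, and are held there by antigen shown on MHC molecules. Those that recognise antigen release granzymes and interferon-gamma, and with lasting stimulation they carry inhibitory receptors such as Pdcd1 (PD-1) and Ctla4. In gliomas, T cells are scarce beside macrophages and microglia, and they often gather near vessels and the tumour's edge.

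The sections came from mice whose brains had been inoculated with a tumour that was then resected, and all were taken at day 11. TREAT areas came from hydrogel-treated animals and Vehicle areas from animals that were not treated with it, with 2 areas a group and 4 animals stated for the whole series. Mouse strain, tumour line, sex and age are not given in the labels used here. Each area carried 2 large pieces of tissue, and the labels do not tie a piece to an animal. Areas were thus the replicates, and the spread between them may be technical. The edgeR tests share information on this spread between genes, so a gene whose areas disagree can still have a small p-value. Tissue was formalin-fixed and paraffin-embedded, and transcripts were read with pairs of gene-specific probes. A spot covers several cells, so the niche is a set of small regions and not a set of T cells. In summed counts of spots, fewer cells of a type and less RNA per cell cannot be told apart.

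Tissue spots held 56150597, 51081123, 34202695 and 45960125 UMIs in total. Niche spots had a median of 31764, 34917, 19437 and 18514 UMIs, against 33209, 36142, 21447 and 21956 UMIs in the other tumour spots, so niche spots were shallower in each area and TREAT spots were deeper than Vehicle spots. The areas carried the same array barcodes by design (4980 in all 4), and 74 barcodes were niche spots in more than 1 area. They mark positions, and no cells were shared.

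The niche rested on few molecules per spot. The median niche spot had 9, 7, 5 and 4 UMIs of the 6 T cell genes together, and the median other tumour spot had 3.5, 3, 2 and 2. The lowest summed level inside the niche was 212, 154, 186 and 160 CPM, and the highest outside it was 212, 153, 186 and 159 CPM, so the rule divided a continuous range. Summed over spots, the 6 genes stood at 296, 207, 278 and 224 CPM in the niche, against 107, 79.9, 82.8 and 75.1 CPM in other tumour spots. Tissue outside the tumour had 17.3, 19.9, 24.2 and 35.0 CPM, so tumour spots outside the niche were also above the surrounding brain. No UMI of the 6 genes was found in 4.13%, 6.86%, 19.5% and 20.6% of the other tumour spots. The niche was chosen by these levels, which are therefore a description.

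Among the 6 genes, Lck had the highest level in niche spots of all areas but TREAT 1+4, where Cd3e led. Lck was at 68.0, 70.3, 109 and 116 CPM in the niche, against 35.4, 33.7, 43.8 and 40.7 CPM in other tumour spots. Cd3e was at 81.5, 40.6, 50.4 and 31.4 CPM in the niche, against 25.5, 15.3, 10.6 and 10.0 CPM in other tumour spots. Cd8a was rarer, at 14.1, 13.9, 13.1 and 8.90 CPM in the niche, against 7.14, 3.91, 4.43 and 3.40 CPM in other tumour spots. A Cd8a UMI was found in 31.5%, 38.6%, 21.3% and 16.7% of niche spots, against 20.2%, 13.3%, 8.80% and 7.39% of other tumour spots and 1.98%, 2.41%, 0.847% and 1.08% of spots outside the tumour. Most niche spots thus held no Cd8a UMI.

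The label was checked on T cell genes that had not ranked the spots, by ranking with 3 of the 6 genes and reading the other 3. In spots ranked by Cd3e, Cd2 and Lck alone, Cd3d, Cd3g and Cd8a together stood at 83.6, 45.1, 56.7 and 36.1 CPM, against 52.3, 35.5, 33.6 and 26.7 CPM in the other tumour spots. The ratios were 1.60, 1.27, 1.69 and 1.35, above 1 in 4 of 4 areas (mean log2 ratio 0.55 ± 0.19 SD, n = 4; exact sign-flip permutation, two-sided p = 0.125, the lowest value possible with 4 areas). The genes that did the ranking differed by 2.98, 2.87, 3.69 and 3.35 times in the same spots. With the sets exchanged, Cd3e, Cd2 and Lck had ratios of 1.61, 1.21, 1.39 and 1.28 (mean log2 ratio 0.45 ± 0.18 SD, n = 4; exact permutation p = 0.125), against 3.88, 4.48, 7.14 and 6.15 for the ranking genes. Genes left out of the ranking were thus higher in every area, by much less than the genes that ranked the spots.

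On average, niche spots lay nearer to the tumour's margin than other tumour spots and tended to touch each other. Their mean steps on the array to tissue outside the tumour were 2.41, 5.61, 7.62 and 7.69, against 4.00, 6.17, 8.82 and 7.74 for other tumour spots. The mean difference was -0.85 ± 0.69 steps (SD, n = 4; exact permutation p = 0.125). In Vehicle 2+3 the 2 values were nearly alike. With the niche drawn anew from tumour spots of at least 2500 proliferation CPM, the mean difference was 0.0165 steps, with the opposite sign. Next to tissue outside the tumour lay 50%, 18.9%, 16.8% and 16.7% of niche spots, against 14.2%, 11.2%, 5.08% and 8.16% of other tumour spots (mean difference 15.9 ± 13.3 percentage points, SD, n = 4). The share was higher in 4 of 4 areas (two-sided exact permutation p = 0.125, the smallest possible). Without TREAT 1+4 the mean difference was 9.33 points, and among tumour spots of at least 2500 proliferation CPM, where the niche was drawn anew, it was 0.999 points. Of the neighbours that a niche spot had within the tumour, 38.0%, 23.3%, 27% and 22% were niche spots too, against 13.6%, 18.7%, 17.9% and 19.0% for other tumour spots (mean difference 10.3 ± 9.74 points, SD, n = 4; exact permutation p = 0.125). Without TREAT 1+4 this difference was 5.57 points, and at 2500 proliferation CPM it was 4.31 points (exact permutation p = 0.25). Niche spots with no niche neighbour made up 25.9%, 31.5%, 27.2% and 31.6% of the niche. The maps show spots along the rim and many single spots inside.

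**Figure D1:**
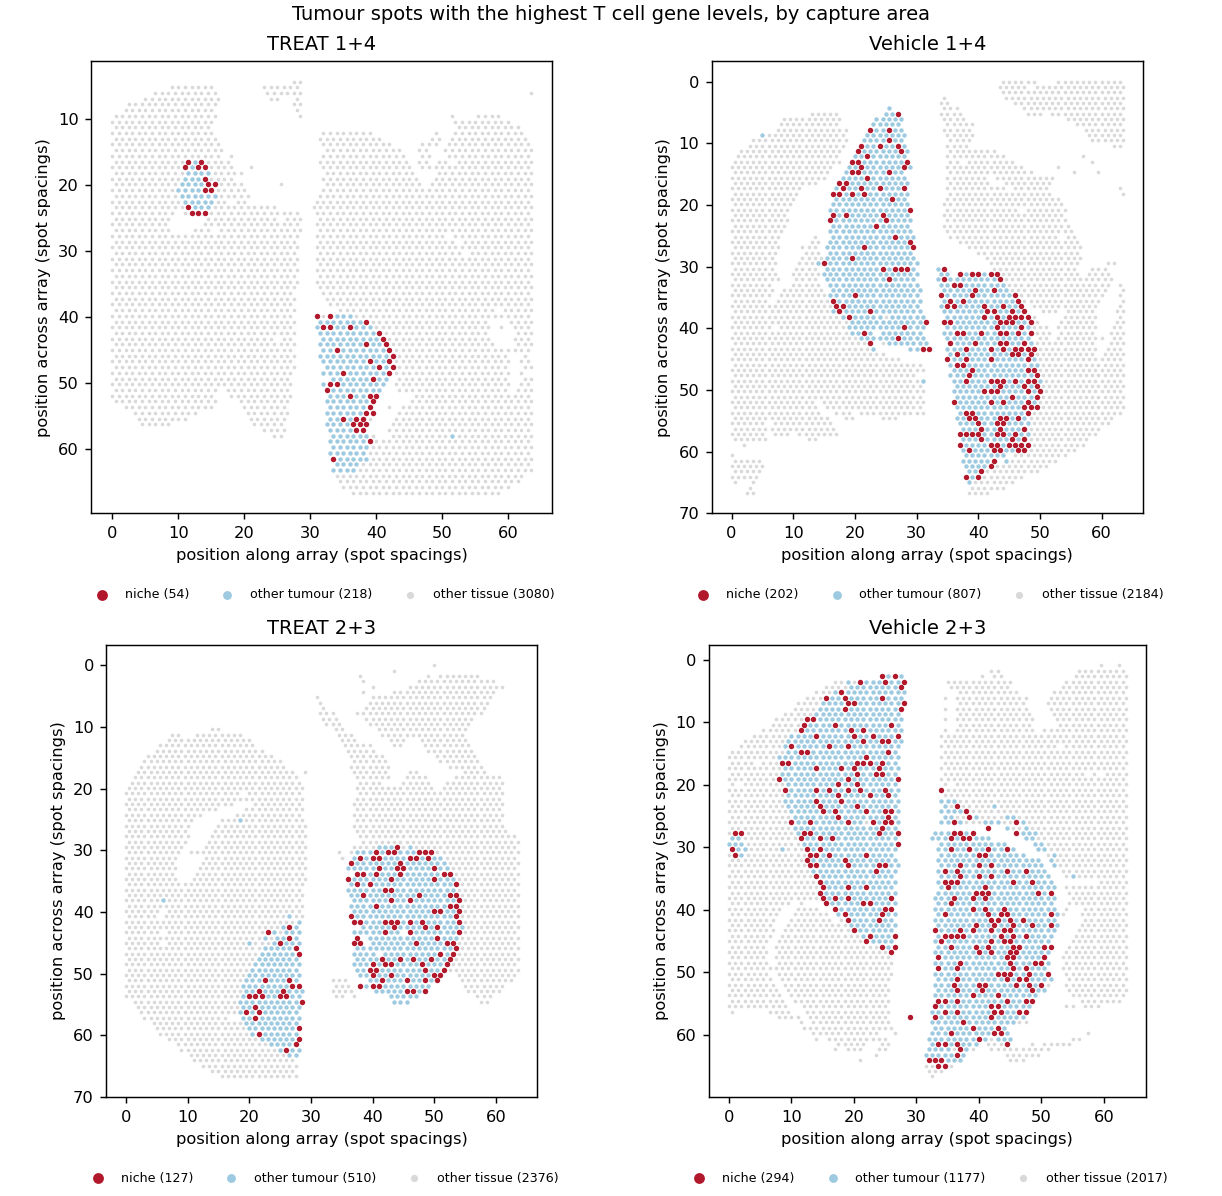
Maps of the 4 capture areas with array positions in units of the spacing between spots; each point is a spot over tissue, coloured as niche, other tumour or other tissue (which includes shallow spots). In TREAT 1+4, 50% of the 54 niche spots lie next to other tissue, while 16.8% and 16.7% of the 202 and 294 niche spots do so in Vehicle 1+4 and Vehicle 2+3.

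The share of tumour spots that were niche spots was highest next to tissue outside the tumour in every area. For position, that tissue is any tissue spot that failed the tumour rule, wherever it lay, and steps were counted from it. At 1 step from outside tissue, 46.6% of tumour spots in TREAT 1+4 were niche spots (Wilson 95% interval 34.3 to 59.2), 29.6% in TREAT 2+3 (20.8 to 40.3), 45.3% in Vehicle 1+4 (34.6 to 56.6) and 33.8% in Vehicle 2+3 (26.6 to 41.8). These intervals cover counting error only. At 2 steps the shares were 20%, 26.1%, 20.5% and 17.6%, and at more steps they lay between 2.38% and 21.3%. In TREAT 1+4 the share fell to 2.38% of 42 spots at 6 to 7 steps. Spots at 1 step were also shallower than spots at 2 steps, with medians of 31233, 27225, 13888 and 13769 UMIs, against 36415.5, 36214, 19260 and 25025 UMIs. With spots ranked within 5 bins of depth, the share of niche spots next to other tissue exceeded that of other tumour spots by 15.3 percentage points on average. Spots can differ in depth within a bin, and the part of depth was not tested.

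**Figure D2:**
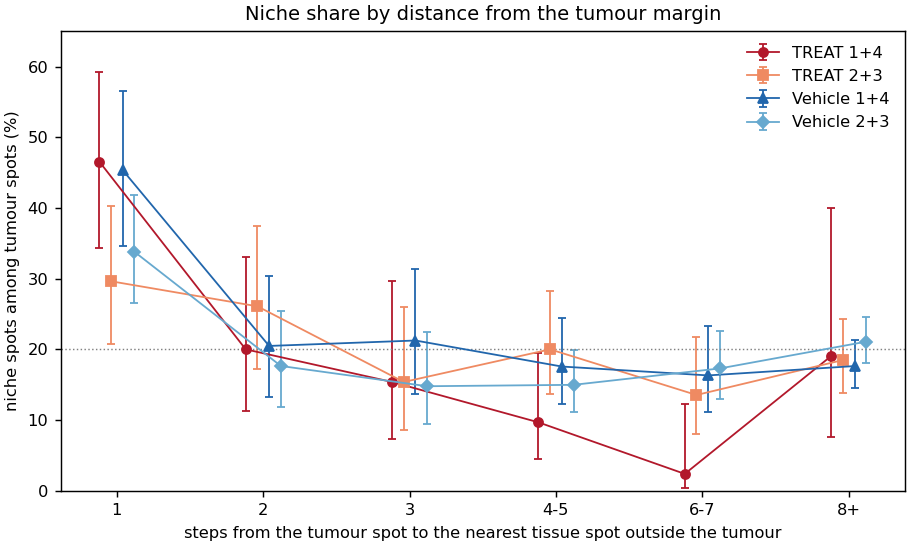
Percent of tumour spots that are niche spots (y axis) by steps on the array to the nearest tissue spot outside the tumour (x axis), for each capture area, with Wilson 95% intervals; the dotted line marks the 20% that the rule takes in each area. The shares at 1 step, 29.6% to 46.6%, lie above those at 2 steps in each area.

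The 2 pieces of an area did not hold the niche in equal shares. In TREAT 1+4 the niche was 17.6% of 227 tumour spots in the larger piece and 31.1% of 45 in the smaller, and in TREAT 2+3 it was 14.1% of 192 and 22.5% of 445. In Vehicle 1+4 it was 11.7% of 532 and 29.4% of 477, and in Vehicle 2+3 it was 21.6% of 732 and 18.3% of 738. Since the cut was set per area, these shares show where T cell genes were high within an area.

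The remaining transcriptome was compared between niche and other tumour spots with counts summed per area, the area as a block and the 27 genes of the rule left out. Of 17848 genes tested, 479 were higher in the niche (2.68%) and 265 lower (1.48%; edgeR quasi-likelihood test, adjusted p under 0.05). Without Vehicle 1+4 the counts were 151 and 5. The lower calls also fell to 61 without TREAT 1+4 and to 35 without TREAT 2+3. Scaled to library totals in place of TMM, 570 were higher and 39 lower, and with DESeq2 249 and 59. The leading genes were those of glia and brain, and since niche spots crowded the margin, the comparison was repeated with spots ranked among spots at like distance from it, an alternative added after seeing the data. It called 129 genes higher (0.724%) and 16 lower (0.0898%) of 17813, of which 121 and 13 were also called with spots ranked over the whole area. Values of the second comparison are given below as "at like distance". Over all genes tested with spots ranked over the whole area, 20.8% had an unadjusted edgeR p under 0.05.

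Receptor and signalling genes of T cells outside the rule were higher in the niche, and no member of that list was lower. All 25 listed genes were tested, 10 were higher, and 6 were at like distance; their median log2 difference was 0.71, and 0.60 at like distance, against -0.05 and 0.00 for all genes tested. Trac, the constant chain of the alpha T cell receptor, was at 36.1, 23.5, 33.9 and 19.8 CPM in the niche, against 15.8, 13.1, 13.3 and 12.2 CPM in other tumour spots. The lowest niche value lay above the highest value outside (log2 change 0.93 ± 0.12 SE, edgeR adjusted p = 1.41e-05), and at like distance the change was 0.79 (adjusted p = 1.41e-05). Trbc2, a beta receptor chain, was at 62.1, 22.1, 31.4 and 14.7 CPM in the niche, against 22, 11.9, 14.3 and 13.3 CPM in other tumour spots. In Vehicle 2+3 these 2 values were close, while in TREAT 1+4 they differed most (log2 change 0.83 ± 0.14 SE, edgeR adjusted p = 0.000963). The near-identical chain Trbc1 changed by 1.04 (adjusted p = 0.000138); how counts divide between these near copies is uncertain. Lat, the scaffold on which receptor signals assemble, was at 29.0, 18.0, 20.1 and 12.3 CPM in the niche, against 10.9, 9.63, 9.49 and 9.10 CPM in other tumour spots (log2 change 0.84 ± 0.14 SE, edgeR adjusted p = 0.000794). Each area's niche was above its other tumour spots.

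Of the same list, Ptprcap (0.77, adjusted p = 0.000588), the CD45-associated protein, and Cd5 (1.08, adjusted p = 0.00268), a brake on receptor signalling, also rose. So did the costimulatory receptors Cd28 (0.81, adjusted p = 0.0118) and Cd27 (1.05, adjusted p = 0.019) and the zeta chain Cd247 (1.21, adjusted p = 0.0398). The co-receptors Cd4 (log2 difference 0.51, adjusted p = 0.069) and Cd8b1 (0.72, adjusted p = 0.0678) did not pass, nor did Tcf7 (-0.10, adjusted p = 0.746) and Il7r (0.20, adjusted p = 0.777), genes of naive and memory cells. The summed level of the 25 genes was highest in the last of 5 equal bins of tumour spots ordered by the 6 ranking genes. In TREAT 1+4 it was 121, 147, 174, 186 and 376 CPM from the lowest bin to the highest, and in Vehicle 2+3 it was 109, 106, 114, 124 and 151 CPM. The step into the last bin was the widest in each of these areas. Of the top 20% of tumour spots by these 25 genes, 61.1%, 44.9%, 43.1% and 28.6% were niche spots, beside the 20% of all tumour spots that the rule takes.

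Cytotoxic genes were higher in part. Of 15 granule and effector genes, 14 were tested, 4 were higher and none lower (median 0.46), and 2 were higher at like distance, while DESeq2 called 0. Gzmb, the granzyme that starts apoptosis in a target cell, was at 13.6, 21, 39.8 and 15.4 CPM in the niche, against 13.6, 10.7, 21.3 and 13.2 CPM in other tumour spots. In TREAT 1+4 the 2 levels were alike, and the difference lay in the other areas (log2 change 0.54 ± 0.13 SE, edgeR adjusted p = 0.0204). Gzmc, a granzyme of strongly activated killer cells in mice, was at 26.6, 5.07, 116 and 35.2 CPM in the niche, against 23.5, 7.46, 57.5 and 28.1 CPM in other tumour spots. It was lower in the niche of TREAT 2+3 and about 2 times higher in that of Vehicle 1+4 (log2 change 0.45 ± 0.12 SE, edgeR adjusted p = 0.0313). Gzma changed by 0.46 (adjusted p = 0.0428), and Nkg7, a granule membrane protein, by 0.61 (adjusted p = 0.0284). Prf1, the pore-forming perforin, had 0.50 (adjusted p = 0.0911) and Ifng, the gene of interferon-gamma, 0.56 (adjusted p = 0.145). Without Vehicle 1+4 none of the 4 was called, and Gzmc had 0.09. Several granzyme genes lie in a cluster of near copies, so counts may be split between them.

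NK cells share Cd2, Lck and granzymes with T cells, so their own receptor genes were read beside these. Of 15 genes, 13 were tested and 1 was higher, Klrb1c (NK1.1), at 10.1, 6.45, 3.31 and 2.62 CPM in the niche, against 2.17, 3.28, 0.943 and 1.94 CPM in other tumour spots (log2 change 1.14 ± 0.27 SE, edgeR adjusted p = 0.0154). The call was lost without TREAT 1+4 and without Vehicle 1+4, and at like distance Klrb1c had 0.70 (adjusted p = 0.27), where 0 of the 13 genes passed by edgeR (8 with an unadjusted p under 0.05). The list's median was 0.55, and its summed level was 101, 54.7, 52.4 and 38.2 CPM in the niche, against 53.4, 42.1, 26.7 and 34.0 CPM in other tumour spots. The niche was above the other tumour spots in each area, and the part of NK cells in the cytotoxic genes was not tested.

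Several inhibitory receptors and genes of regulatory T cells were higher. Of 13 checkpoint and exhaustion genes, 11 were tested and 4 were higher (median 0.39; 2 at like distance). Ctla4, which competes with Cd28 for its ligands, was at 36.1, 21.2, 18.1 and 5.73 CPM in the niche, against 13.3, 11.4, 6.13 and 4.68 CPM in other tumour spots. The difference in CPM was widest in TREAT 1+4 and narrow in Vehicle 2+3 (log2 change 1.00 ± 0.16 SE, edgeR adjusted p = 0.000451; at like distance 0.73, adjusted p = 0.00426). Pdcd1, the PD-1 receptor, was at 25.4, 16.4, 21.7 and 11.8 CPM in the niche, against 13, 12.2, 9.26 and 9.17 CPM in other tumour spots (log2 change 0.65 ± 0.14 SE, edgeR adjusted p = 0.00819). The niche was above the other tumour spots in every area. Entpd1, the ectonucleotidase CD39 of exhausted and regulatory T cells and of myeloid cells, changed by 0.35 (adjusted p = 0.0138), and Havcr2 (TIM-3) by 0.36 (adjusted p = 0.0431). Lag3 (0.39, adjusted p = 0.1), Tox (0.59, adjusted p = 0.313) and Tigit (-0.37, adjusted p = 0.668) did not pass.

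All 8 regulatory T cell genes were tested, and 3 were higher in both rankings. Foxp3, the factor that defines these cells, was at 13, 5.99, 5.86 and 3.93 CPM in the niche, against 3.94, 3.23, 2.65 and 2.05 CPM in other tumour spots (log2 change 1.07 ± 0.22 SE, edgeR adjusted p = 0.00407). At a few CPM it was about 2 to 3 times higher in each area's niche. Tnfrsf4 (OX40) was at 40.2, 28.6, 24.0 and 19.3 CPM in the niche, against 20.1, 20, 13.9 and 15.5 CPM in other tumour spots (log2 change 0.55 ± 0.11 SE, edgeR adjusted p = 0.00451), and Il2ra, the high-affinity IL-2 receptor chain, changed by 0.79 (adjusted p = 0.0101). Of 14 ligands of checkpoint and costimulatory receptors, 13 were tested and 1 was higher, Cd48 (0.38, adjusted p = 0.0419), a call lost at like distance (0.31, adjusted p = 0.194). Cd274, which encodes PD-L1, had 0.11 (adjusted p = 0.29).

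Chemokines were higher in the niche in part, and none was lower. Of 23 genes 20 were tested, 10 were higher (median 0.30), and 7 were higher at like distance; DESeq2 called 3. Ccl5, a chemokine that T and NK cells make themselves, was at 246, 157, 188 and 130.3 CPM in the niche, against 130.1, 113, 89.6 and 96.5 CPM in other tumour spots. Every niche value lay above the outside value of its area (log2 change 0.65 ± 0.07 SE, edgeR adjusted p = 3.95e-06), and at like distance the change was 0.43 (adjusted p = 8.12e-05). Cxcl9, an interferon-gamma-induced chemokine that draws activated T cells, was at 183, 172, 90.8 and 94.8 CPM in the niche, against 128, 140.1, 54.4 and 98.0 CPM in other tumour spots. It was higher in 3 of 4 areas and slightly lower in Vehicle 2+3 (log2 change 0.28 ± 0.08 SE, edgeR adjusted p = 0.0417). Ccl22, a product of dendritic cells that draws regulatory T cells, was at 25.4, 11.3, 9.18 and 9.98 CPM in the niche, against 6.39, 7.85, 2.24 and 5.92 CPM in other tumour spots (log2 change 1.11 ± 0.20 SE, edgeR adjusted p = 0.00165). Cxcl12, a stromal and vascular chemokine, was at 26, 3.23, 5.86 and 5.07 CPM in the niche, against 3.13, 1.78, 1.77 and 2.96 CPM in other tumour spots (log2 change 1.52 ± 0.28 SE, edgeR adjusted p = 0.00177). Its level in TREAT 1+4 stood far above the rest.

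Of 15 chemokine receptors, 14 were tested and 3 were higher. Ccr7, the receptor that guides naive T cells and mature dendritic cells to lymphoid tissue, was at 18.9, 21, 20.4 and 12.1 CPM in the niche, against 9.11, 10.4, 6.60 and 7.93 CPM in other tumour spots (log2 change 0.99 ± 0.15 SE, edgeR adjusted p = 0.000144; at like distance 0.76, adjusted p = 0.000837). The niche was about 1.5 to 3 times higher in each area. Ccr6 changed by 1.07 (adjusted p = 0.00867), which at like distance did not pass (0.82, adjusted p = 0.0538), and Ccr2, a receptor of monocytes and some T cells, by 0.38 (adjusted p = 0.0367). Cxcr3, the receptor of Cxcl9, had too few counts to be tested with spots ranked over the whole area. At like distance all 15 receptors were tested and 2 were higher. All 11 leukocyte adhesion genes were tested and 4 were higher. Ackr1, a chemokine-binding receptor of venules where leukocytes leave the blood, was at 10.7, 8.29, 10.5 and 9.98 CPM in the niche, against 6.52, 3.06, 2.83 and 3.18 CPM in other tumour spots (log2 change 1.42 ± 0.19 SE, edgeR adjusted p = 3.89e-05). Selplg, the selectin ligand of leukocytes, was at 81.7, 75.1, 78.5 and 62.5 CPM in the niche, against 38.5, 52.4, 41.6 and 49.5 CPM in other tumour spots (log2 change 0.59 ± 0.09 SE, edgeR adjusted p = 0.000121). The integrin chain Itgb2 (0.38, adjusted p = 0.0023) and Vcam1 (0.38, adjusted p = 0.0419) also rose. At like distance Vcam1 had 0.07 (adjusted p = 0.892), while the other 3 were called. Of the 12 endothelial genes 0 passed by edgeR and by DESeq2 (3 had an unadjusted edgeR p under 0.05, and library totals called 1), and Pecam1, the general endothelial marker, had 0.27 (adjusted p = 0.255).

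**Figure D3:**
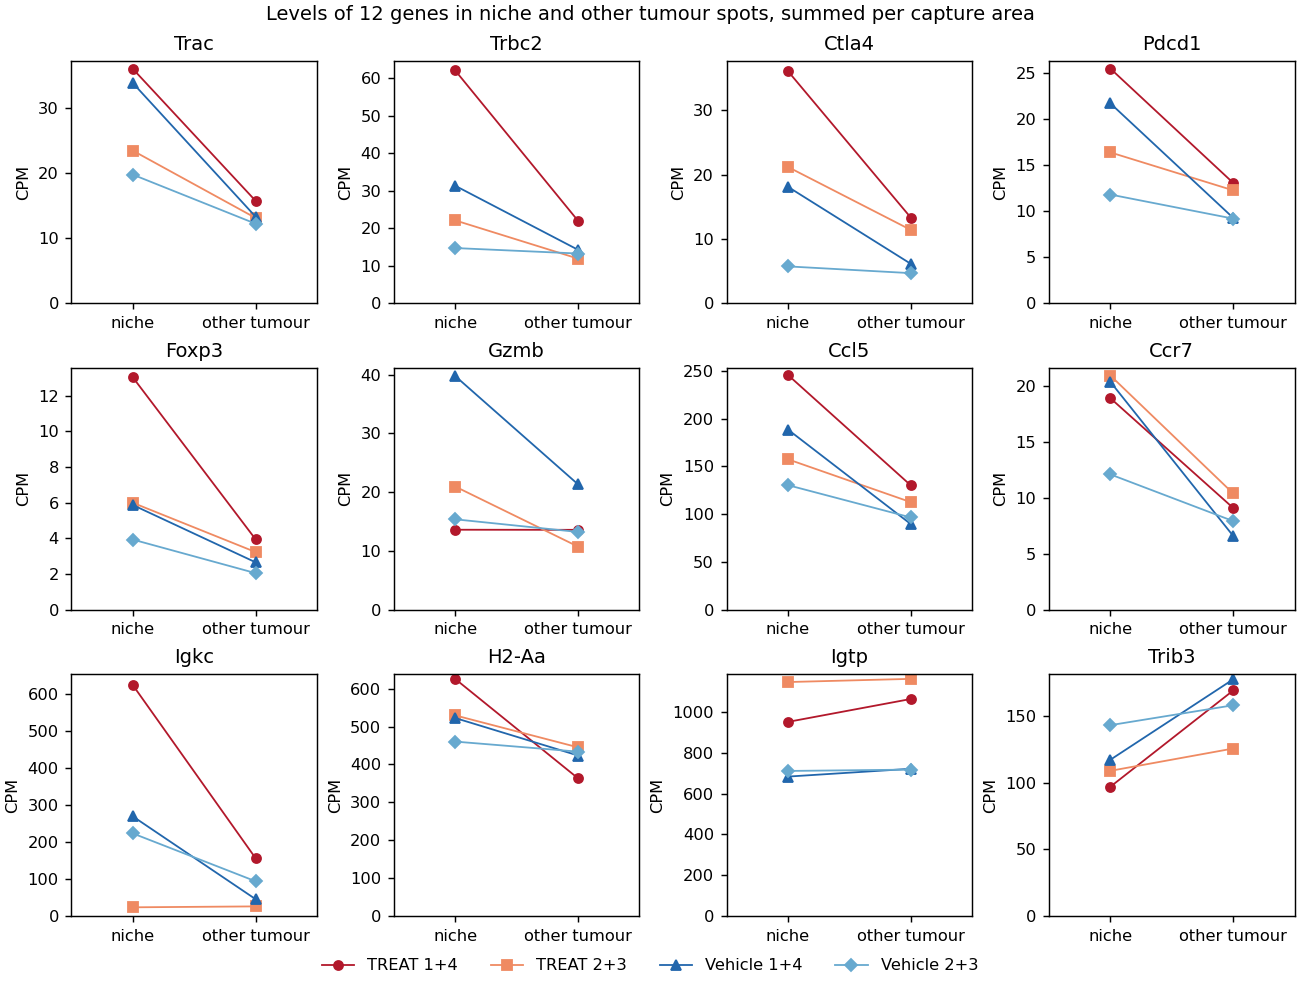
Levels in CPM (y axis) of 12 genes in the niche (left of each panel) and the other tumour spots (right), from counts summed per capture area; each line joins the 2 classes of 1 area. Trac, Ctla4, Ccl5 and Ccr7 fall to the right in every area, Igkc does not in TREAT 2+3, Igtp is nearly level, and Trib3 goes up to the right.

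Some genes of antigen presentation by MHC class II were higher in the niche, while no gene of the 2 interferon lists passed by edgeR with TMM. Of 11 class II genes, all tested, 5 were higher in each ranking, 4 of them the same (H2-Aa, H2-Ab1, H2-Eb1 and H2-DMb2). H2-Aa, a chain of the class II molecule, was at 625, 529, 522 and 460.3 CPM in the niche, against 363, 445, 424 and 434 CPM in other tumour spots (log2 change 0.27 ± 0.07 SE, edgeR adjusted p = 0.0275), and H2-Ab1 changed by 0.27 (adjusted p = 0.0232). The protease Ctss, which trims the class II invariant chain, was at 1525, 949, 704 and 707 CPM in the niche, against 1074, 768, 542 and 629 CPM in other tumour spots (log2 change 0.27 ± 0.05 SE, edgeR adjusted p = 0.00218). Both genes were higher in each area's niche, by 0.27 on the log2 scale. All 16 class I genes were tested, and 2 were higher, the non-classical genes H2-Q7 (0.62, adjusted p = 7.02e-05) and H2-Q6 (0.62, adjusted p = 0.000185), which are near copies of each other. The list's median was -0.03.

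Of 21 interferon-gamma-induced genes 20 were tested, and 0 passed by edgeR or by DESeq2 (6 had an unadjusted edgeR p under 0.05, and library totals called 1). Their median was 0.03. Igtp, a GTPase that interferon-gamma induces, was at 952, 1147, 684 and 711 CPM in the niche, against 1064, 1162, 722 and 718 CPM in other tumour spots (log2 change -0.13 ± 0.05 SE, edgeR adjusted p = 0.107). It was slightly lower in the niche of each area. Irf1, a factor that interferon-gamma induces, had -0.07 (adjusted p = 0.383). The summed level of the 21 genes over the 5 bins was 7872, 8715, 8147, 8039 and 8108 CPM in TREAT 1+4 and 6683, 6913, 7340, 7038 and 7191 CPM in Vehicle 2+3. Neither area showed a steady course over the bins. Of the top 20% of tumour spots by these genes, 24.1%, 18.9%, 21.8% and 23.1% were niche spots, beside the 20% that the rule takes. All 21 type I interferon-induced genes with a feature were tested, and 0 passed by edgeR or by DESeq2 (median -0.11; 10 had an unadjusted edgeR p under 0.05). Mx1 and Mx2 were not analysed here.

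Some myeloid genes were higher in the niche, and fewer were at like distance. Of 20 macrophage and monocyte genes 19 were tested and 7 were higher (median 0.20), and 3 were at like distance. Plac8, of inflammatory monocytes, was at 180.5, 96.8, 85.4 and 90.7 CPM in the niche, against 80.6, 73.3, 40.9 and 71.6 CPM in other tumour spots (log2 change 0.63 ± 0.09 SE, edgeR adjusted p = 0.000149; at like distance 0.48, adjusted p = 3.44e-05). Ly6c2, the surface marker of the same cells, changed by 0.60 (adjusted p = 0.00163), and at like distance by 0.38 (adjusted p = 0.016). C1qa, a complement chain of macrophages and microglia, was at 1134, 819, 784 and 861 CPM in the niche, against 828, 682, 548 and 763 CPM in other tumour spots (log2 change 0.28 ± 0.05 SE, edgeR adjusted p = 0.00141), and at like distance it had 0.12 (adjusted p = 0.217). Plac8 and Ly6c2 were thus called in both rankings, and C1qa in 1 of them. Which cells of the spots carried Plac8 and Ly6c2 was not tested. Of the top 20% of tumour spots by the macrophage list, 35.2%, 32.3%, 43.1% and 29.3% were niche spots.

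The 10 homeostatic microglia genes had a median log2 difference of 0.17, and of 0.02 at like distance, where 0 passed by edgeR (2 had an unadjusted p under 0.05). With spots ranked over the whole area, the defining genes P2ry12 (0.11, adjusted p = 0.756) and Tmem119 (0.13, adjusted p = 0.56) did not pass. Among 12 tested genes of disease-associated microglia, 4 were higher and 1 lower, and at like distance 0 were higher by edgeR and 1 lower (6 of the 12 had an unadjusted p under 0.05). Apoe, a lipid carrier, was at 2854, 1126, 1532 and 1527 CPM in the niche, against 1797, 862, 1047 and 1264 CPM in other tumour spots (log2 change 0.40 ± 0.05 SE, edgeR adjusted p = 3.06e-05), and at like distance it had 0.09 (adjusted p = 0.516). Spp1, encoding osteopontin, was lower, at 450.3, 149, 273 and 333 CPM in the niche, against 489, 190.0, 294 and 365 CPM in other tumour spots (log2 change -0.24 ± 0.05 SE, edgeR adjusted p = 0.00653), and remained so at like distance (-0.16, adjusted p = 0.0204). It was the only member of the myeloid lists called lower in either ranking.

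All 16 dendritic cell genes were tested and 3 were higher, namely Irf8, Ccl22 and the mature-cell gene Cacnb3, of which Irf8 and Ccl22 were called at like distance. Irf8, a factor that type 1 dendritic cells need and that other myeloid and B cells also express, was at 122, 71.9, 104 and 114 CPM in the niche, against 66.2, 53.4, 69.5 and 94.0 CPM in other tumour spots (log2 change 0.43 ± 0.07 SE, edgeR adjusted p = 0.000757). Defining genes of type 1 dendritic cells did not pass (Clec9a 0.37, adjusted p = 0.515; Flt3 0.96, adjusted p = 0.116). Of 11 neutrophil genes 8 were tested and 0 passed by edgeR or DESeq2 (2 with an unadjusted edgeR p under 0.05), as did 0 of the 7 mast cell genes (1 unadjusted). Mcpt1, a mast cell protease gene outside that list, was lower, at 59.8, 11.3, 23.5 and 43.2 CPM in the niche, against 99.9, 23.6, 38.4 and 47.7 CPM in other tumour spots (log2 change -0.62 ± 0.10 SE, edgeR adjusted p = 0.000588; at like distance -0.47, adjusted p = 0.00119).

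Antibody genes showed wide differences that varied between areas. Of 14 B and plasma cell genes 13 were tested and 5 were higher (median 0.86), and 3 were at like distance, while DESeq2 called 2. Ighm, the heavy chain of IgM, was at 59.8, 19.1, 96.4 and 39.8 CPM in the niche, against 17.3, 13.4, 11.6 and 12.2 CPM in other tumour spots (log2 change 1.80 ± 0.20 SE, edgeR adjusted p = 2.35e-06). Igkc, the kappa light chain, was at 623, 23.7, 269 and 223 CPM in the niche, against 156, 26.2, 45.7 and 93.9 CPM in other tumour spots (log2 change 1.56 ± 0.18 SE, edgeR adjusted p = 3.95e-06). It was higher in 3 of 4 areas and slightly lower in TREAT 2+3, whose levels were the lowest in both classes. The small p-value of Igkc thus does not mean that the areas agreed. Jchain, which joins secreted IgM and IgA, changed by 1.27 (adjusted p = 0.00113), and the B cell genes Pou2af1 by 1.21 (adjusted p = 0.00276) and Cd79a by 0.81 (adjusted p = 0.0495). The defining B cell gene Ms4a1 (1.06, adjusted p = 0.0666) did not pass. Of the top 20% of tumour spots by this list, 55.6% in TREAT 1+4 were niche spots, and 24.4%, 29.7% and 25.5% in the other areas.

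Genes of glia and neurons had the smallest p-values of the comparison, and most of the listed ones were not called at like distance. Gfap, the filament protein of astrocytes (ENSMUSG00000020932, mm10 chromosome 11, 102887336 to 102897200), was at 521, 177, 136 and 142 CPM in the niche, against 197, 96.0, 47.2 and 60.5 CPM in other tumour spots (log2 change 1.18 ± 0.07 SE, edgeR adjusted p = 2.91e-11), and at like distance it had 0.30 (adjusted p = 0.0218). Igfbp2, a growth factor-binding protein (ENSMUSG00000039323, mm10 chromosome 1, 72824480 to 72852474), was at 278, 88.7, 47.7 and 93.1 CPM in the niche, against 116, 39.4, 16.0 and 37.5 CPM in other tumour spots (log2 change 1.25 ± 0.06 SE, edgeR adjusted p = 4.89e-12), and at like distance it had 0.23 (adjusted p = 0.499). Mbp, a myelin protein of oligodendrocytes, was at 765, 359, 193 and 242 CPM in the niche, against 321, 253, 103 and 134 CPM in other tumour spots (log2 change 0.81 ± 0.07 SE, edgeR adjusted p = 8.6e-08). At like distance its change turned to -0.05 (adjusted p = 0.943).

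By list, 9 of 10 oligodendrocyte genes were higher with spots ranked over the whole area (median 0.91) and 0 at like distance (median 0.03). With the niche drawn anew from tumour spots at least 2 steps inside, 1 of the 10 was higher. There, 10 of 10 had a log2 difference above 0 (median 0.23). Of 10 astrocyte genes 5 were higher and 2 at like distance (Gfap and the glutamate transporter gene Slc1a3, 0.36, adjusted p = 0.0399), and of 10 neuron genes 4 and 0. Other leading genes of this kind were the tight junction gene Cldn11 (1.38, adjusted p = 2.96e-08), Fabp7 (0.81, adjusted p = 2.96e-08), Fxyd1 (1.08, adjusted p = 7.46e-08), Scg3 (1.06, adjusted p = 7.46e-08) and Tubb4a (0.97, adjusted p = 2.96e-08). Summed oligodendrocyte genes stood at 2045, 1184, 563 and 741 CPM in the niche, against 984, 915, 321 and 465 CPM in other tumour spots and 13407, 9935, 10294 and 10633 CPM in tissue outside the tumour. Both classes of tumour spots lay far below the surrounding tissue, and the niche above the other tumour spots in each area. The part of brain tissue within niche spots in the other gene groups was not tested beyond the comparison at like distance.

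Some connective tissue genes were higher in the niche in both rankings. All 14 fibroblast and matrix genes were tested and 5 were higher, 4 of them at like distance, while DESeq2 called 1. Their summed level was 2639, 965, 1349 and 1080 CPM in the niche, against 958, 946, 1087 and 985 CPM in other tumour spots, so TREAT 1+4 held the widest difference and TREAT 2+3 almost none. Dcn, the matrix proteoglycan decorin, was at 87.6, 3.69, 26.5 and 8.84 CPM in the niche, against 9.38, 2.00, 6.96 and 2.49 CPM in other tumour spots (log2 change 2.11 ± 0.21 SE, edgeR adjusted p = 6.38e-07; at like distance 1.59, adjusted p = 2.59e-07). Col1a2, a chain of collagen I, was at 568, 22.6, 102 and 69.2 CPM in the niche, against 87.4, 11.4, 51.4 and 44.6 CPM in other tumour spots (log2 change 1.34 ± 0.19 SE, edgeR adjusted p = 0.000125). TREAT 1+4 had over 5 times the niche level of any other area. Igfbp5, a binding protein of insulin-like growth factors, was at 178, 29.7, 97.1 and 61.1 CPM in the niche, against 46.9, 14.4, 46.7 and 30.6 CPM in other tumour spots (log2 change 1.17 ± 0.11 SE, edgeR adjusted p = 9.83e-08) and led the comparison at like distance (0.70, adjusted p = 2.59e-07). Of 10 pericyte and smooth muscle genes 2 were higher, the contractile genes Tagln (1.09, adjusted p = 0.00101) and Acta2 (0.81, adjusted p = 0.0232), of which Tagln was called at like distance, and of 7 tested meningeal genes 1, Aldh1a2 (1.18, adjusted p = 0.0026).

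Most genes of the integrated stress response list were lower in the niche. All 12 listed genes were tested, 9 were lower and none higher (median -0.27); 4 were lower at like distance, 5 with library totals and 7 by DESeq2. Chac1, an enzyme that degrades glutathione and a target of Atf4 (ENSMUSG00000027313, mm10 chromosome 2, 119351242 to 119354326), was at 26.6, 32.3, 65.3 and 62.5 CPM in the niche, against 43.8, 39.3, 84.5 and 78.7 CPM in other tumour spots (log2 change -0.45 ± 0.07 SE, edgeR adjusted p = 0.000477). Trib3, a pseudokinase induced by the same pathway, was at 97.0, 109, 117 and 143 CPM in the niche, against 169, 126, 178 and 158 CPM in other tumour spots (log2 change -0.46 ± 0.08 SE, edgeR adjusted p = 0.000871). Both were lower in each area's niche and remained lower at like distance (Chac1 -0.23, adjusted p = 0.0414; Trib3 -0.27, adjusted p = 0.00705). Atf4 itself, the factor at the centre of this response, changed by -0.24 (adjusted p = 0.0136), and at like distance by -0.10 (adjusted p = 0.203). Gdf15, a secreted stress factor, was at 31.4, 49.5, 73.9 and 83.3 CPM in the niche, against 57.4, 59.5, 111 and 94.9 CPM in other tumour spots (log2 change -0.47 ± 0.08 SE, edgeR adjusted p = 0.001). Without Vehicle 1+4, Trib3, Gdf15, Ddit3 and Sesn2 were not called, and Sesn2 had -0.22 in place of -0.36, while Chac1 was called without any 1 area.

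Further leading genes on the lower side were Myc, the growth-driving transcription factor, at 139, 178, 251 and 227 CPM in the niche, against 186, 193, 316 and 243 CPM in other tumour spots (log2 change -0.29 ± 0.06 SE, edgeR adjusted p = 0.00475), and Wnt7b, a Wnt ligand (-0.33, adjusted p = 0.00484). Shf (-0.33, adjusted p = 0.00179), Padi4 (-0.35, adjusted p = 0.00233), Slc6a9 (-0.31, adjusted p = 0.00394), Mapk12 (-0.34, adjusted p = 0.00396), Ppl (-0.37, adjusted p = 0.0047) and Plagl1 (-0.24, adjusted p = 0.00492) were lower too. These differences were all under 0.5 on the log2 scale. Values of these genes at like distance are not reported here. Of all 265 genes called lower, 13 were also called lower at like distance. With library totals 39 genes were called lower. Median proliferation level, which had selected tumour spots, was 2783, 2634, 3018 and 2950 CPM in the niche, against 3053, 2712, 2932 and 2946 CPM in other tumour spots. Of 15 hypoxia genes 1 was higher, Ndrg1 (0.98, adjusted p = 0.00075), a call lost at like distance (0.46, adjusted p = 0.397), and Vegfa had -0.13 (adjusted p = 0.361). Of 15 mesenchymal glioma genes tested, 2 were higher and 2 lower. The matrix gene Tnc (0.78, adjusted p = 0.000126) was among the higher, and Cebpb (-0.20, adjusted p = 0.0298) and Anxa1 (-0.21, adjusted p = 0.0368) were lower. At like distance these 3 genes were not called (Tnc 0.31, adjusted p = 0.131; Cebpb -0.12, adjusted p = 0.103; Anxa1 -0.08, adjusted p = 0.532), while 2 other members of the list were higher and 0 lower by edgeR. Cebpb and Anxa1 were not called with library totals. Library totals and DESeq2 each called 2 of the list higher and 0 lower.

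**Figure D4:**
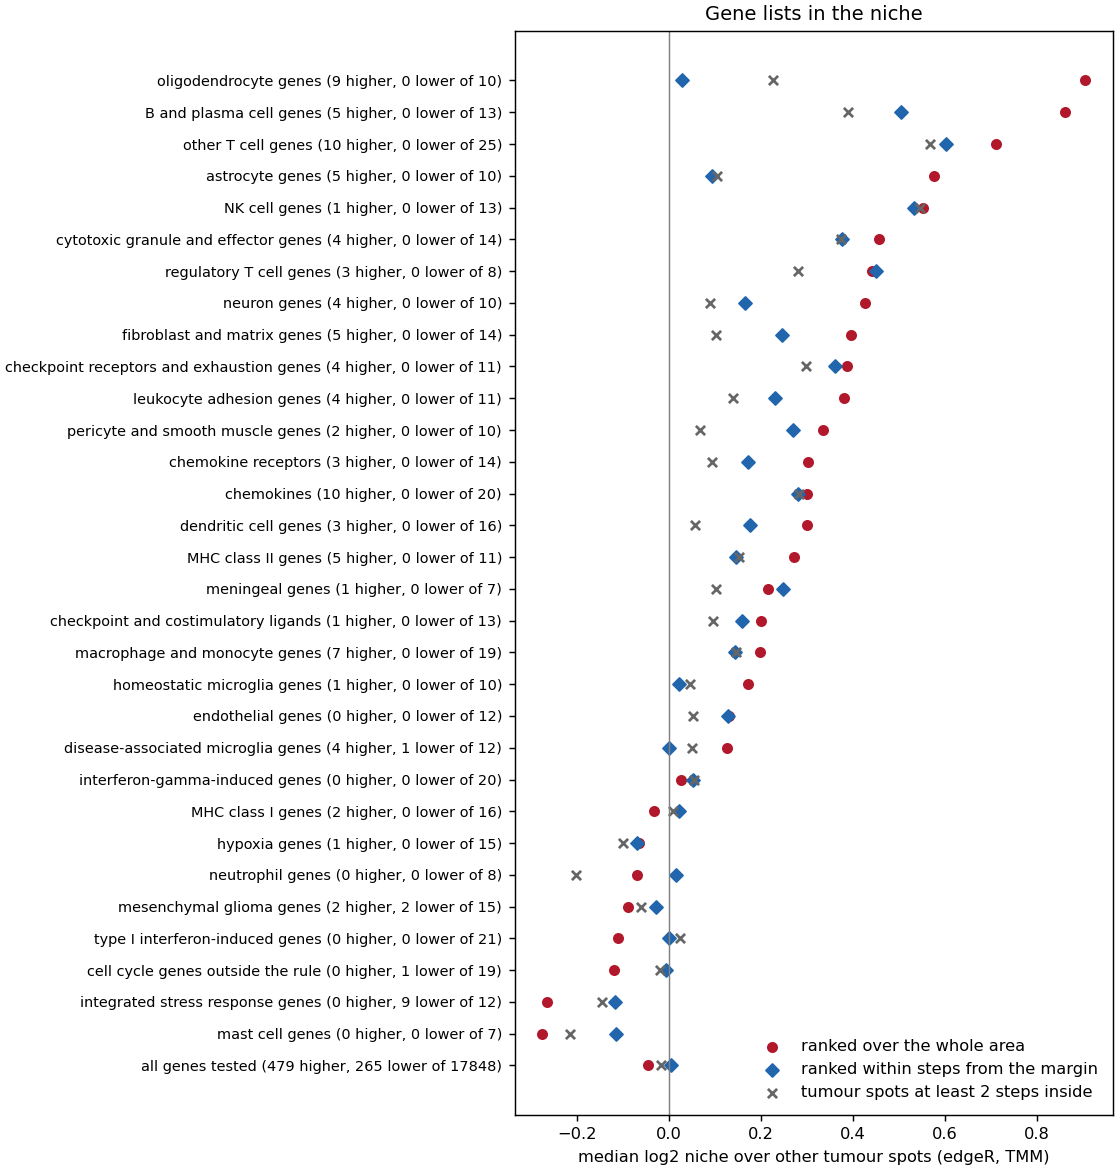
Median log2 difference between niche and other tumour spots (x axis) of each gene list (y axis, with the number of members higher and lower of those tested), for spots ranked over the whole area, ranked within steps from the margin, and for tumour spots at least 2 steps inside. Lists of T and NK cells keep medians between 0.28 and 0.71 in all 3. The oligodendrocyte median is 0.91 over the whole area, 0.03 with spots ranked within steps from the margin, and 0.23 for spots at least 2 steps inside.

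Tumour spots next to tissue outside the tumour were also left out, and the niche was drawn anew from the spots at least 2 steps inside. There, 98 of 16920 genes were higher (0.579%) and 30 lower (0.177%). Of these, 93 and 26 were also called with all tumour spots. Among T cell genes outside the rule 5 of 25 were higher, among regulatory T cell genes 3 of 8 and among cytotoxic genes 2 of 14. Gzmb changed by 0.65 (adjusted p = 0.00023) there and Gzmc by 0.55 (adjusted p = 0.00369). Igkc had the smallest p (1.30, adjusted p = 2.76e-12), followed by other antibody genes and by Dcn (1.44, adjusted p = 2.51e-07). T cell genes, antibody genes and Dcn were thus higher also among tumour spots not next to tissue outside the tumour. Spots on the rim of the tissue, with fewer than 6 neighbours over tissue, were left out only where they also lay next to such tissue. In the niche drawn from all tumour spots, 27.8%, 18.9%, 18.8% and 15.3% lay on that rim, against 14.2%, 13.7%, 15.7% and 13.1% of other tumour spots. The part of the tissue's rim in these genes was not tested.

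Tumour spots that touched a niche spot were compared with tumour spots that touched none, neither of which the rule had chosen. Of 18310 genes, 5 were higher (0.0273%) and 3 lower (0.0164%) in touching spots. The higher ones were antibody genes, a matrix gene and a class I gene. Igkc was at 174, 27.7, 57.5 and 105 CPM in touching spots, against 137, 23.5, 27.7 and 71.2 CPM in spots that touched none (log2 change 0.54 ± 0.07 SE, edgeR adjusted p = 0.000514), and Ighg2c, the heavy chain of IgG2c, at 58.2, 5.84, 4.49 and 9.29 CPM in touching spots, against 32.7, 1.38, 1.34 and 4.58 CPM in spots that touched none (log2 change 1.09 ± 0.15 SE, edgeR adjusted p = 0.00056). Mgp, a matrix protein (0.48, adjusted p = 0.00533), Ighj1, a joining segment (0.82, adjusted p = 0.00964), and H2-Q7 (0.31, adjusted p = 0.0373) were the others. Ighj1 was lower in touching spots of TREAT 2+3. Igkc had -0.31 in tumour spots of at least 2500 proliferation CPM and -0.07 with spots ranked at like distance, so its direction rested on these choices. Ccl5 was next in order (0.30, adjusted p = 0.092) and did not pass.

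Lower in touching spots were Spp1, at 439.6, 163, 284 and 351 CPM in touching spots, against 540.2, 238, 309.9 and 392 CPM in spots that touched none (log2 change -0.28 ± 0.05 SE, edgeR adjusted p = 0.00964), Chac1 (-0.32, adjusted p = 0.00966) and Fam107a (-0.37, adjusted p = 0.0129). Next in order, without passing, were Nkd2 (-0.48, adjusted p = 0.0629), Gdf15 (-0.31, adjusted p = 0.0963) and 2900026A02Rik (-0.31, adjusted p = 0.169). None of the 25 listed T cell genes passed, and Trac had 0.42 (adjusted p = 0.479). The median of the 25 T cell genes was 0.32, against 0.00 for all genes tested. The 6 ranking genes, given as a description, stood at 110, 84.3, 89.3 and 76.3 CPM in touching spots, against 105, 72.2, 72.9 and 72.6 CPM in spots that touched none. Counts of calls moved with every area left out: 13 higher and 7 lower without Vehicle 1+4, 8 and 11 without Vehicle 2+3, 3 and 5 without TREAT 1+4, and 10 and 2 without TREAT 2+3. With spots ranked at like distance, 0 were higher by edgeR and 42 lower.

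Within the niche, TREAT and Vehicle areas were compared directly, 2 areas against 2. Of 14294 genes tested, 155 were higher in TREAT niches (1.08%) and 720 lower (5.04%), and no gene of the T cell, cytotoxic, NK, checkpoint receptor and regulatory T cell lists was among them by edgeR or DESeq2. An unadjusted edgeR p under 0.05 was found for 5 of 22 T cell genes tested, 3 of 11 cytotoxic, 2 of 10 NK, 1 of 9 checkpoint receptor and 0 of 6 regulatory T cell genes, and for 28.3% of all genes tested. The median of the T cell genes was 0.34, against 0.05 for all genes tested. With library totals 308 were higher and 304 lower, and the median gene shifted by 0.25 in place of 0.05 on the log2 scale. TREAT niche spots were deeper (31764 and 34917 UMIs at the median, against 19437 and 18514 UMIs in Vehicle niches), and the part of depth was not tested. The counts rested on single areas: without Vehicle 1+4 or without Vehicle 2+3 there were 0 higher and 1 lower, without TREAT 1+4 707 and 2002, and without TREAT 2+3 1042 and 2131. With 1 area left in a group, that area is assumed to vary as the other group does.

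Genes of the stress response were lower in TREAT niches. Atf5, a transcription factor induced by amino acid and mitochondrial stress (ENSMUSG00000038539, mm10 chromosome 7, 44812256 to 44816658), was at 41.4 and 46.5 CPM in TREAT niches, against 188 and 177 CPM in Vehicle niches (log2 change -2.24 ± 0.17 SE, edgeR adjusted p = 0.00416). The groups did not overlap, and it was the only one of the 20 named genes called in each of the 4 fits that left out an area. Of the 12 stress response genes tested 6 were lower, among them Chac1 (26.6 and 32.3 CPM in TREAT niches, against 65.3 and 62.5 CPM in Vehicle niches; log2 change -1.29 ± 0.19 SE, edgeR adjusted p = 0.0139), Sesn2 (-1.31, adjusted p = 0.0133), Ddit4 (-1.20, adjusted p = 0.0147) and Herpud1 (-0.93, adjusted p = 0.0192). With library totals 5 were lower. The difference was not particular to the niche. Summed, the 12 genes stood at 1454 and 1744 CPM in TREAT niches, against 2111 and 2264 CPM in Vehicle niches. In the other tumour spots they stood at 1844 and 1900 CPM in TREAT, against 2602 and 2352 CPM in Vehicle.

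Of the other leading genes on the lower side, Lgals7, a galectin, was at 82.8 and 98.1 CPM in TREAT niches, against 239 and 243 CPM in Vehicle niches (log2 change -1.60 ± 0.17 SE, edgeR adjusted p = 0.0132). Col9a3, a collagen chain, was at 54.4 and 70.5 CPM in TREAT niches, against 176 and 203 CPM in Vehicle niches (log2 change -1.78 ± 0.19 SE, edgeR adjusted p = 0.0132). Tnfaip2, a TNF-induced gene, was at 68.1 and 79.7 CPM in TREAT niches, against 206 and 169 CPM in Vehicle niches (log2 change -1.53 ± 0.18 SE, edgeR adjusted p = 0.0132). Each gene's TREAT values lay below both Vehicle values. The histone gene Hist4h4 (-1.78, adjusted p = 0.0132), Pabpc4 (-1.63, adjusted p = 0.0132), which binds poly(A) tails, Faim2 (-2.08, adjusted p = 0.0132), which counters Fas-induced death, Rin3 (-1.45, adjusted p = 0.0132), Trim8 (-1.63, adjusted p = 0.0132) and 2310033P09Rik (-1.64, adjusted p = 0.0132) followed. Of 19 cell cycle genes 3 were lower, Mcm4, Ccnd1 and Cenpa, and of 16 class I genes 2, Tapbp (-1.22, adjusted p = 0.0337), which loads peptides, and Nlrc5 (-0.66, adjusted p = 0.0485), which drives class I transcription. Neither class I gene was called with library totals.

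On the higher side, Bhlhe40, a transcription factor of activated T cells and of many other cells (ENSMUSG00000030103, mm10 chromosome 6, 108660629 to 108666925), was at 183 and 138 CPM in TREAT niches, against 55.8 and 57.3 CPM in Vehicle niches (log2 change 1.29 ± 0.18 SE, edgeR adjusted p = 0.0133). Ccn1, a secreted matrix protein, was at 122 and 99.8 CPM in TREAT niches, against 38.2 and 44.7 CPM in Vehicle niches (log2 change 1.20 ± 0.18 SE, edgeR adjusted p = 0.0139), and Cd36, a fatty acid receptor, at 28.4 and 27.6 CPM in TREAT niches, against 8.16 and 7.20 CPM in Vehicle niches (log2 change 1.67 ± 0.26 SE, edgeR adjusted p = 0.015). Cst7, a protease inhibitor of killer lymphocytes and of activated microglia, was at 52.1 and 41.0 CPM in TREAT niches, against 17.6 and 15.2 CPM in Vehicle niches (log2 change 1.29 ± 0.22 SE, edgeR adjusted p = 0.0172). In all 4 genes the groups were well apart, but each call was lost without either Vehicle area. Gm3500, Txndc16 and Rftn2 had log2 changes of 1.29, 1.44 and 2.30. Vmn1r158, a member of a large family of near-identical pheromone receptor genes, had 2.42 and is uncertain for that reason. Olfr124, an odorant receptor gene, had 16 UMIs in TREAT niches and 0 in Vehicle niches, at least 8.87-fold higher against a limit of 3 counts over the group. Mobp, a myelin gene, was at 156 and 104 CPM in TREAT niches, against 36.5 and 52.0 CPM in Vehicle niches (log2 change 1.33 ± 0.24 SE, edgeR adjusted p = 0.0188), and 4 of 10 oligodendrocyte genes were higher (median 1.24). In the other tumour spots, summed oligodendrocyte genes were also higher in TREAT (984 and 915 CPM) than in Vehicle (321 and 465 CPM).

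Among immune genes, Cxcl9 was higher, at 183 and 172 CPM in TREAT niches, against 90.8 and 94.8 CPM in Vehicle niches (log2 change 0.73 ± 0.16 SE, edgeR adjusted p = 0.0306), the only chemokine of 20 called. In the other tumour spots its TREAT values also lay above both Vehicle values. Socs1, a feedback inhibitor of interferon signalling, was lower (-0.79, adjusted p = 0.0375), the only call of 20 interferon-gamma-induced genes tested. With library totals 2 of these genes were higher and 0 lower by edgeR, and DESeq2 called 2 higher and 1 lower. Gbp2b had 0.81 (adjusted p = 0.051). Gzmc was at 26.6 and 5.07 CPM in TREAT niches, against 116 and 35.2 CPM in Vehicle niches (log2 change -2.71 ± 0.69 SE, edgeR adjusted p = 0.0517). The TREAT values lay below both Vehicle values, and the test did not pass. Ctla4 was at 36.1 and 21.2 CPM in TREAT niches, against 18.1 and 5.73 CPM in Vehicle niches (log2 change 1.07 ± 0.48 SE, edgeR adjusted p = 0.179), and Il2rb, a receptor chain for IL-2 and IL-15, at 12.4 and 6.68 CPM in TREAT niches, against 3.06 and 1.80 CPM in Vehicle niches (log2 change 1.73 ± 0.48 SE, edgeR adjusted p = 0.0634). The TREAT values of both lay above the Vehicle values, as they did for 42.5% of all genes tested. Lower non-overlapping values were found for 20.3%.

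**Figure D5:**
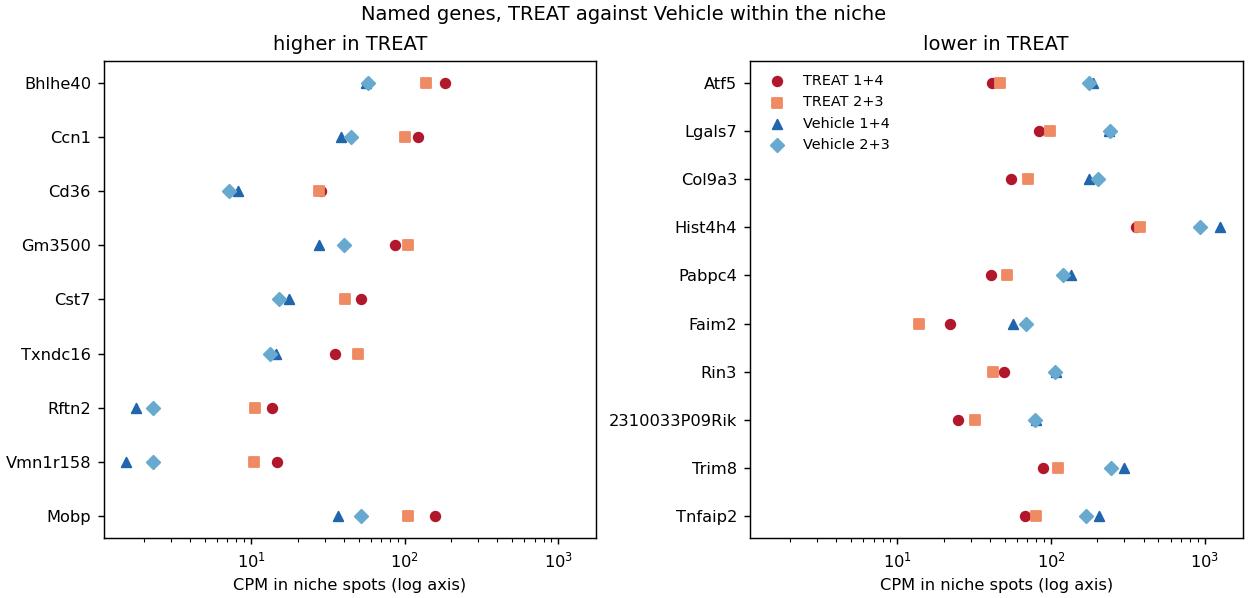
CPM in niche spots (x axis, log scale) of the genes named for TREAT against Vehicle, higher in TREAT on the left and lower in TREAT on the right, with 1 point per capture area; Olfr124 is left out because it had 0 counts in both Vehicle areas. The genes were chosen for groups that do not overlap, so the points of TREAT and Vehicle lie apart by choice, for Atf5 at 41.4 and 46.5 against 188 and 177.

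Whether the niche differed from the tumour around it in another way in TREAT than in Vehicle was tested as an interaction. Of 17848 genes, 0 passed in either direction by edgeR, DESeq2 and limma-trend (605 had an unadjusted p under 0.05). The smallest p-values on the side of a larger niche difference in TREAT belonged to Col1a2 (log2 change 1.46 ± 0.24 SE, edgeR adjusted p = 0.056), Serpina3n (0.69, adjusted p = 0.083), an acute-phase gene of reactive astrocytes, Col1a1 (1.45, adjusted p = 0.083), Lbp (0.80, adjusted p = 0.25), Mt2 (0.52, adjusted p = 0.264) and Tm4sf1 (0.52, adjusted p = 0.361). Without TREAT 1+4, Col1a2 had 0.20 and Col1a1 -0.40. On the other side stood antibody and granzyme genes, namely Iglc1 (log2 change -1.89 ± 0.37 SE, edgeR adjusted p = 0.121), Gzmg (-1.48, adjusted p = 0.264), Gzmf (-1.30, adjusted p = 0.615), Igha (-1.34, adjusted p = 1) and Ighm (-1.19, adjusted p = 1), and the neuropeptide gene Sst (-1.33, adjusted p = 1). With spots ranked by Cd3e, Cd2 and Lck alone the granzyme genes turned round: Gzmg had 1.12 (adjusted p = 0.0326) and Gzmf 0.39. Over all its alternatives, the adjusted p of Gzmg ranged between 3.27e-08 and 1. Calls arose when single areas were left out: 12 higher and 9 lower without Vehicle 2+3, 2 and 9 without TREAT 1+4, and 162 and 38 without TREAT 2+3, against 0 and 0 without Vehicle 1+4. For the 25 other T cell genes the median interaction was 0.18, against 0.06 for all genes.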

How the data were processed

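Spatial expression was measured in 4 capture areas of mouse brain, with probe pairs that are ligated on the transcript and captured on barcoded spots, per the labels' protocols. The deposited values were raw UMI counts per gene and spot, with no normalization, for spots on and off tissue. Space Ranger 2.1.1, R 4.4.1, Seurat and the build mm10 are named in the submitters' processing notes. Of 32589 features, 304 with a deprecated identifier were left out. Positions came from the RefSeq table of GRCm38.p6 (mm10), which 18165 of 18485 tested features matched by symbol. A symbol shared by 2 features counts once in lists.

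Counts were summed per area and spot class and tested with edgeR 4.0.16 (quasi-likelihood, TMM, filterByExpr; R 4.3.3), with Benjamini-Hochberg adjustment over all features tested and a threshold of 0.05. The area was a block between spot classes, and 2 areas faced 2 between groups. CPM values are scaled to 1000000 UMIs over the summed spots. Each SE of a log2 change is its absolute value divided by the square root of the edgeR F statistic, and not a separately fitted standard error. Differences per area were tested by exact sign-flip permutation, two-sided (Python 3.11.15, scipy 1.17.1). DESeq2 1.42.0, limma 3.58.1, other scalings, filters, niche sizes, tumour limits and rankings, and leaving out each area, were the alternatives. Ranking within steps from the margin and leaving out the tumour spots at 1 step were added after seeing the data. Scripts were tested on simulated data. Doublets were not called, spots being mixtures.

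The members and gene lists were chosen with earlier results of these data known. Between spot classes, 12 genes per direction were named, by p-value, out of those called with 1 sign in all 4 areas. Between TREAT and Vehicle they were the 10 with the smallest p and no overlap of groups, for the interaction the 6 with the smallest p, and 4 with the smallest p per list. Where fewer than 6 were called, the 6 with the smallest p are given as values. Some genes that these rules name are not reported here. Other list members, Ighj1 and the genes said not to pass were chosen after their values were seen. The numbers in the labels did not pair areas across groups: deviations of same-numbered areas from their group means had a correlation of 0.0217 over 14294 genes.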

Additional observations from a re-analysis of the deposited data

Results flagged for a closer look

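Of the 12 genes named for the smallest interaction p, 5 had a niche that differed from the other tumour spots one way in both TREAT areas and the opposite way in both Vehicle areas. Choosing by that p favours this pattern, which 1725 of all 17848 genes tested showed (9.66%). The interaction test passed for none of them by edgeR. Lbp, a binding protein for bacterial lipopolysaccharide, had a log2 interaction of 0.80 (adjusted p = 0.25), with 124 and 37.8 CPM in TREAT niches, against 65.8 and 33.7 CPM in the other tumour spots of those areas. In Vehicle areas Lbp had 54.6 and 55.3 CPM in the niche, against 60.0 and 65.2 CPM in the other tumour spots. Tm4sf1, a membrane protein of endothelial and tumour cells, had 0.52 (adjusted p = 0.361).

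On the opposite side, Iglc1, a lambda light chain gene, had -1.89 (adjusted p = 0.121), and the granzyme genes Gzmg and Gzmf had -1.48 (adjusted p = 0.264) and -1.30 (adjusted p = 0.615). In TREAT 2+3 the niche and other levels of Gzmf were 2.99 and 3.00 CPM, so its sign there rests on almost no difference. With spots ranked by Cd3e, Cd2 and Lck alone, Gzmg had 1.12 (adjusted p = 0.0326) and Gzmf 0.39, the opposite direction. The adjusted p of Gzmg ranged between 3.27e-08 and 1 over its alternatives.

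Array spots off the tissue, which no comparison uses, held UMIs of the 6 T cell genes at 118 CPM in TREAT 1+4, 66.4 CPM in TREAT 2+3, 116 CPM in Vehicle 1+4 and 97.4 CPM in Vehicle 2+3. Tissue outside the tumour had 17.3, 19.9, 24.2 and 35.0 CPM, and the tumour spots outside the niche 107, 79.9, 82.8 and 75.1 CPM, so off-tissue spots were above both in every area but TREAT 2+3. The median off-tissue spot had 159.5, 593, 351 and 681.5 UMIs, and 6.28%, 6.72%, 7.67% and 9.31% of these spots held a UMI of the 6 genes. High off-tissue levels were not particular to T cell genes. The proliferation genes of the rule stood at 494, 854, 1342 and 1490 CPM off tissue, against 106, 158, 136 and 255 CPM in tissue outside the tumour. Summed oligodendrocyte and neuron genes were lower off tissue than in that tissue in every area.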

How the results depend on the processing

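The niche against other tumour spots gave 479 genes higher and 265 lower. Higher counts moved past 1.5 times under DESeq2 (249), the top 10% (873), 2500 proliferation CPM (104), 1 cut over all areas (722), ranking by Cd3e, Cd2 and Lck (164), ranking at like distance (129) and spots at least 2 steps inside (98). Lower counts moved to 59 with DESeq2, 39 with library totals, 35 with a mean of at least 10 CPM, 132 with limma-trend, 578 with the top 10%, 130 with the top 30%, 48 at 2500 proliferation CPM, 75 within 5 bins by UMI count, 908 with 1 cut, 17 by Cd3e, Cd2 and Lck, 16 at like distance and 30 inside. Leaving out each area gave 151 to 536 higher and 5 to 191 lower. TREAT against Vehicle within the niche (155 and 720) gave, higher, 75 with DESeq2, 308 with library totals, 97 with limma-trend, 70 with the top 10%, 800 with the top 30%, 379 at 2500 and 76 at 1000 proliferation CPM, 285 within bins, 608 with 1 cut, 441 by Cd3e, Cd2 and Lck, 644 at like distance and 591 inside. Lower, it gave 304 with library totals, 1572 with no filter, 361 with the top 10%, 1778 with the top 30%, 1201 at 2500 proliferation CPM, 1490 with 1 cut, 1341 at like distance and 1405 inside. Without each area the ranges were 0 to 1042 and 1 to 2131. With the label numbers as a replicate block the counts were 471 and 1137, although the numbers share no more than a label. Of these calls, 17.7% were on the higher side with TMM and 50.3% with library totals. In the niche against other tumour spots, 64.4% and 93.6% were, and 80.8% with DESeq2.

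The interaction (0 and 0) gave, higher, 16 with no filter, 6 with the top 10%, 11 at 2500 proliferation CPM, 1 from 5000 UMIs, 12 within bins, 14 with 1 cut, 7 by Cd3e, Cd2 and Lck, 3 by Cd3d, Cd3g and Cd8a, 2 at like distance and 1 inside. Lower, it gave 5, 3 and 4 under the first 3 of these, 3 with 1 cut, 1 and 2 by the 2 gene sets, 1 at like distance and 2 inside, and 0 to 162 and 0 to 38 without each area. Touching spots (5 and 3) gave, higher, 2 with DESeq2, 9 with no filter, 3 with at least 10 CPM, 2 with limma-trend, 89 with the top 10%, 1 with the top 30%, 0 at 2500 and 9 at 1000 proliferation CPM, 2 within bins, 12 with 1 cut, 9 by Cd3d, Cd3g and Cd8a, 0 at like distance and 2 inside. Lower, they gave 1, 5, 0 and 1 under the first 4, 17 with the top 10%, 6 at 2500 proliferation CPM, 6 with 1 cut, 14 by Cd3d, Cd3g and Cd8a and 42 at like distance, and without each area 3 to 13 and 2 to 11.

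The mean difference in steps was 0.0165 at 2500 proliferation CPM, and -1.12 to -0.60 without each area. That in median UMIs was 170.6 within bins by UMI count, which sets depth alike, and -2299 to -1560 without each area. Neighbours in the niche differed by 5.57 to 12.7 points, spots next to other tissue by 9.33 to 18.7 points, and the held-out genes by 0.49 to 0.62 and 0.37 to 0.50 without each area. At like distance Mbp had -0.045, Mobp -0.060 and, in touching spots, Igkc -0.074, which had -0.31 at 2500 proliferation CPM. By Cd3e, Cd2 and Lck, Gzmg had 1.12 and Gzmf 0.39 in the interaction and Ighj1 -0.22 in touching spots. Without TREAT 1+4, Col1a1 had -0.40 in the interaction, the lowest of a range up to 1.83 over the areas left out. Of 95 called genes followed in the niche comparison, 45 were called without any 1 area, as were 1 of 20 in TREAT against Vehicle. The causes were not tested. With 4 to 9 T cell UMIs in the median niche spot, membership of single spots is uncertain, and 2 areas a group limit the precision.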
